A study of Homo sapiens with 21 samples.

Results

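BT-549 is an established human breast cancer line whose samples are labelled triple-negative, a class defined by the lack of oestrogen and progesterone receptors and of raised HER2. Its 3 arrays, of 21 in the series, were taken by their titles: 1 from cells given the solvent DMSO, 1 from cells given 50 nM THZ1 and 1 from cells given 250 nM THZ1, each for 6 hours. All 3 cultures were kept in the same serum-containing medium with antibiotics, and the labels name no genetic change. The other 18 arrays cover the same doses in MDA-MB-468, also triple-negative, and in ZR-75-1 and T47D, with 2 arrays per dose in each. The source name of the ZR-75-1 and T47D samples gives MDA-MB-468, and their titles and cell line labels were followed instead. BT-549 has 1 array per dose, so no value below carries a replicate error of its own and no test was made.

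THZ1 binds covalently to CDK7. CDK7, the kinase subunit of TFIIH, phosphorylates the tail of RNA polymerase II as transcription starts and also activates the kinases of the cell cycle. A messenger with a short life follows a loss of transcription within hours, while a long-lived messenger stays near its old level, so growth factor response genes, feedback inhibitors and many transcription factors are sensitive readouts after a short exposure.

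Each array gives a linear intensity per probe set, a group of short probes against 1 transcript. A gene was read from its brightest probe set over all arrays and kept if at least 1 BT-549 array reached the median of all values in the table, an intensity of 57.4. This left 10797 of 18107 genes. A difference is given as log2 of the treated over the DMSO intensity, and a gene is counted as lower or higher from 2-fold on. The other probe sets of the gene served as an internal check of the measurement, although they read the same RNA. The replicate arrays of the other lines gave the only gauge of spread: 3 to 22 genes were 2-fold apart between replicates, and a kept gene's largest gap over 9 replicate pairs had a median of 0.29 on the log2 scale. The labels do not say whether those replicates were separate cultures. The mean intensity was 342.1 with DMSO, 339.1 at 50 nM and 335.3 at 250 nM, while the 75th percentile was 213.7, 191 and 180.1. The background, the mean of 23 background probe sets, was 25.17, 26.13 and 27.87. The ratio of the 3' to the 5' probe sets of ACTB, a sign of RNA integrity, was 1.29, 1.29 and 1.42, and its part in the differences at 250 nM was not tested.

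Of 5 luminal markers, ESR1, PGR and FOXA1 lay below background on all 3 arrays by their representing probe sets, while ERBB2, the HER2 gene, read 148, 157.6 and 148 and GATA3 read 139.2, 203.4 and 106.8, both above the median of all values. The oestrogen receptor gene ESR1 had other probe sets above background, the brightest at 70.52, 73.69 and 86.3, and a second probe set of FOXA1 read 25.07, 35 and 32.67. All 10 mesenchymal markers stood above the median of all values on every array, among them COL6A1 at 130.9 and AXL at 135.9 with DMSO. VIM, the filament vimentin, read 14440, 14290 and 14880, and CDH2, the neural cadherin, read 2580, 2758 and 2624. Of 9 epithelial markers, 4 stood above that median, with DMSO values of 423.8 for KRT18, 153.9 for KRT19, 96.35 for CLDN4 and 89.22 for KRT8. The epithelial cadherin CDH1 lay under that median and read 34.92, 38.28 and 40.52. Both basal keratins measured stayed under it, KRT5 at 41.73 and KRT14 at 36.15 with DMSO, while the basal markers ITGA6 and CDH3 read 2079 and 915.1. Of 7 immune and endothelial markers 1 stood above the median with DMSO and 3 did at 250 nM, with a summed intensity of 275.9, 276.2 and 330.7. Of those 7, the leukocyte marker PTPRC was below background throughout.

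At 50 nM, 391 genes were at least 2-fold lower (3.62% of the genes kept) and 17 were at least 2-fold higher (0.157%). At 250 nM, 1080 were lower (10.0%) and 19 higher (0.176%). Between the doses, 467 genes were lower at 250 nM than at 50 nM (4.33%) and 12 were higher (0.111%). The lower tail was deep, with 238 genes at least 4-fold and 30 at least 8-fold lower at 250 nM, against 9 and 0 at 50 nM. Most genes lay near 0, the median difference being -0.05 at 50 nM and -0.01 at 250 nM. Quantile normalization would move the second median to 0.12 and the share of genes below 0 from 50.8% to 37.2%, while 96.5% of the genes past 2-fold would still be lower. The counts of higher genes lay within the 3 to 22 genes that differed 2-fold between replicate arrays, but that range covers both directions. In 1 direction the replicate pairs gave from 0 to 17 genes, so 17 equals the largest of these counts and 19 lies above it. Of the higher genes, 17 of 17 at 50 nM and 18 of 19 at 250 nM differed by more than that gene's largest replicate gap in the other lines. That gap had a median of 0.29, under the 2-fold limit, so most counted genes pass it by selection and it lends no support. Single genes are given below with their probe sets. Of the 1080 lower genes, 1078 differed by more than the gene's largest replicate gap in the other lines, which the selection at 2-fold again makes likely. A total of 87 of them were not above background at 250 nM, and their fold is then a bound.

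**Figure D1:**
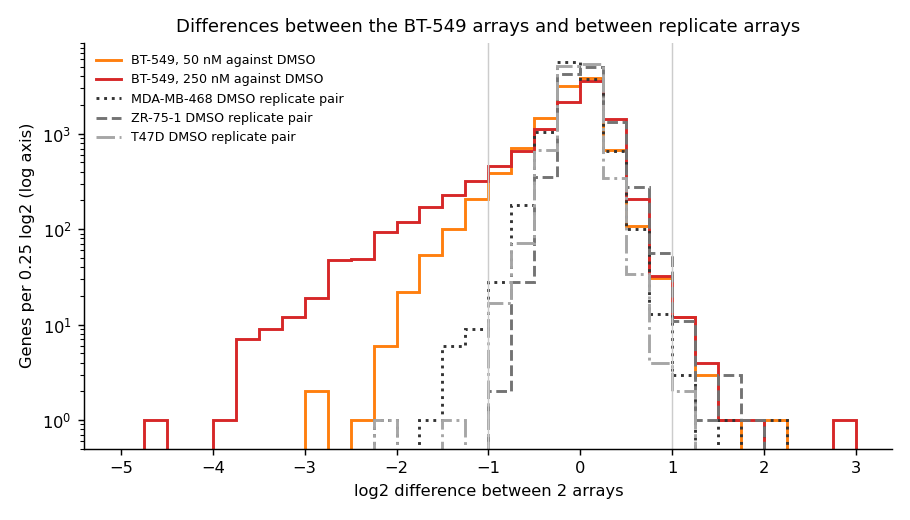
Number of genes (log axis) by log2 difference between 2 arrays, in bins of 0.25, for BT-549 at 50 and 250 nM against DMSO (solid) and for the DMSO replicate pair of each other line (broken). Vertical lines mark 2-fold; the BT-549 curves extend to the left of the replicate pairs, with 391 and 1080 genes past the left line, while on the right side 17 and 19 genes lie past 2-fold, 1 of them, H2BC8 at 2.88, beyond all replicate differences drawn.

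Other probe sets went the same way for most of the lower genes at 250 nM. Of the 1080, 635 had a second probe set that reached the median on a BT-549 array, and in 585 of these (92.1%) every such probe set was lower. In 313 (49.3%) every one was at least 2-fold lower, and in 0 did one go 2-fold the other way. Over all 6302 genes with more than 1 such probe set, 66.5% had all of them on the same side of 0. At 50 nM the check was looser: 171 of 216 genes (79.2%) had all probe sets lower, 65 (30.1%) all at least 2-fold, and 5 had one 2-fold higher, beside 57.2% on the same side over all genes. Across genes the representing probe set and the next brightest correlated at r = 0.59 at 50 nM and 0.79 at 250 nM, and genes are not independent replicates. Of the 17 higher genes at 50 nM, 9 had a second probe set and 3 had all probe sets higher. Of the 19 at 250 nM, 5 had a second one, and all 5 had every probe set higher.

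**Figure D2:**
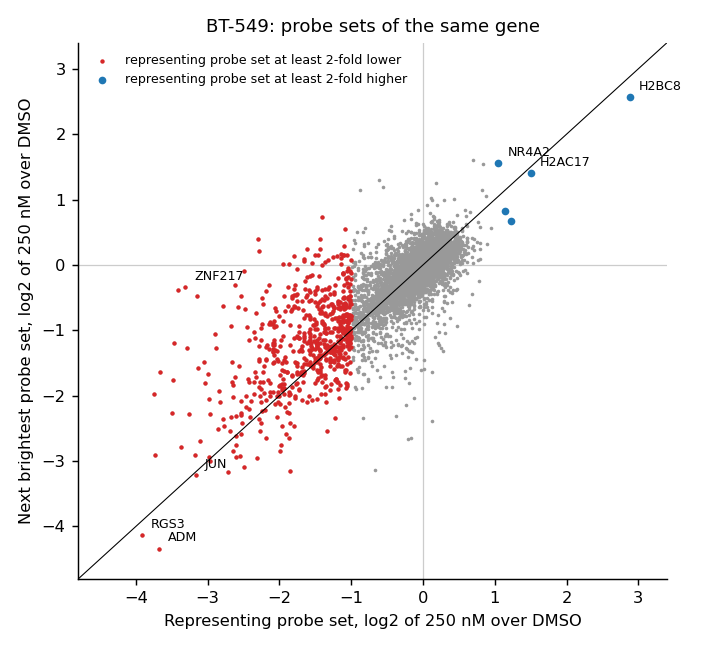
log2 difference at 250 nM of the representing probe set (horizontal) and of the next brightest probe set (vertical) for 6302 genes; red points are at least 2-fold lower and blue points at least 2-fold higher by the representing probe set, and the line marks equality. RGS3 and JUN lie near the line, ZNF217 lies far above it at -3.31 and -0.34, and H2BC8 lies at the upper end.

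Regulators of transcription were among the genes with the lowest values relative to DMSO. MYC, a transcription factor of growth, read 3156 with DMSO, 1719 at 50 nM and 477.1 at 250 nM, a log2 difference of -0.88 and then -2.73, from a single probe set. JUN, an AP-1 subunit, read 2639, 781.9 and 294.5 (-1.75 and -3.16), and its 4 probe sets lay between -3.21 and -2.18 at 250 nM. JUN thus made the larger part of its step at the lower dose and MYC at the higher one. CITED2, a co-regulator that binds the coactivators CBP and p300, read 1435, 486.3 and 108.2 (-1.56 and -3.73), with its other probe set at -2.91. SOX9, a factor linked to progenitor cells of the breast, read 500.6, 254 and 102.3 (-0.98 and -2.29), with 1 of its other probe sets at -0.89. FOSL1, another AP-1 subunit, read 138.4, 73.63 and 73.11 by the probe set that represents it (-0.92 at 250 nM), and its other 5 probe sets lay between -2.01 and -1.29. On the list of 13 kept regulators linked to triple-negative cancer, 5 were lower (38.5%, beside 10.0% over all genes kept) and 0 higher at 250 nM. The 5 were MYC, SOX9, CEBPB at -2.03, KLF5 at -1.94 and TWIST1 at -1.05. STAT3 and MYBL2 were at 0.19 and 0.21. GATA3 and the receptor gene EGFR, at 139.2 and 234.6 with DMSO, stood at -0.38 and -0.33 by their representing probe sets. The other GATA3 probe sets stood at -1.14 and -0.37, the former at 137.5 with DMSO.

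The largest difference at 250 nM among the genes named was that of DKK1. DKK1, a secreted inhibitor of WNT signalling, read 5842, 1500 and 235, which is 24.9-fold lower at 250 nM (-4.64), from 1 probe set. Its intensity with DMSO was the highest among the genes printed here that ended at least 8-fold lower. RGS3, which shortens signalling through G protein coupled receptors, read 2021, 568.4 and 133.1 (-1.83 and -3.92), with the other probe set at -4.13. ADM, the vasodilator peptide adrenomedullin, read 945.1, 274.3 and 73.73 (-1.78 and -3.68), and its other 2 probe sets lay at -4.34 and -1.92. These genes stepped down at each dose. TIPARP, an ADP-ribosyltransferase induced by the aryl hydrocarbon receptor, read 1994, 894.1 and 176.1 (-3.50), with the other probe set at -2.26. MOCS3, a sulphur carrier enzyme of molybdenum cofactor and tRNA modification, read 224.5, 33.22 and 16.84, and since the last value is below background it was at least 8.05-fold lower by this probe set, while its other probe set stood at -1.97. MARS2, the mitochondrial methionyl-tRNA synthetase, was at least 8.4-fold lower by its representing probe set and stood at -1.27 by the other usable one. Among the other genes that the naming rule took at 250 nM, CCDC71L, DYRK2 and PHF23, TRIB1 and ZNF7 lay between -3.64 and -3.18 by their representing probe sets. Other usable probe sets stood at -1.94 and -1.20 for CCDC71L, from -2.28 to -1.61 for DYRK2 and at -2.90 for PHF23. TRIB1 and ZNF7 had 1 usable probe set each.

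**Figure D3:**
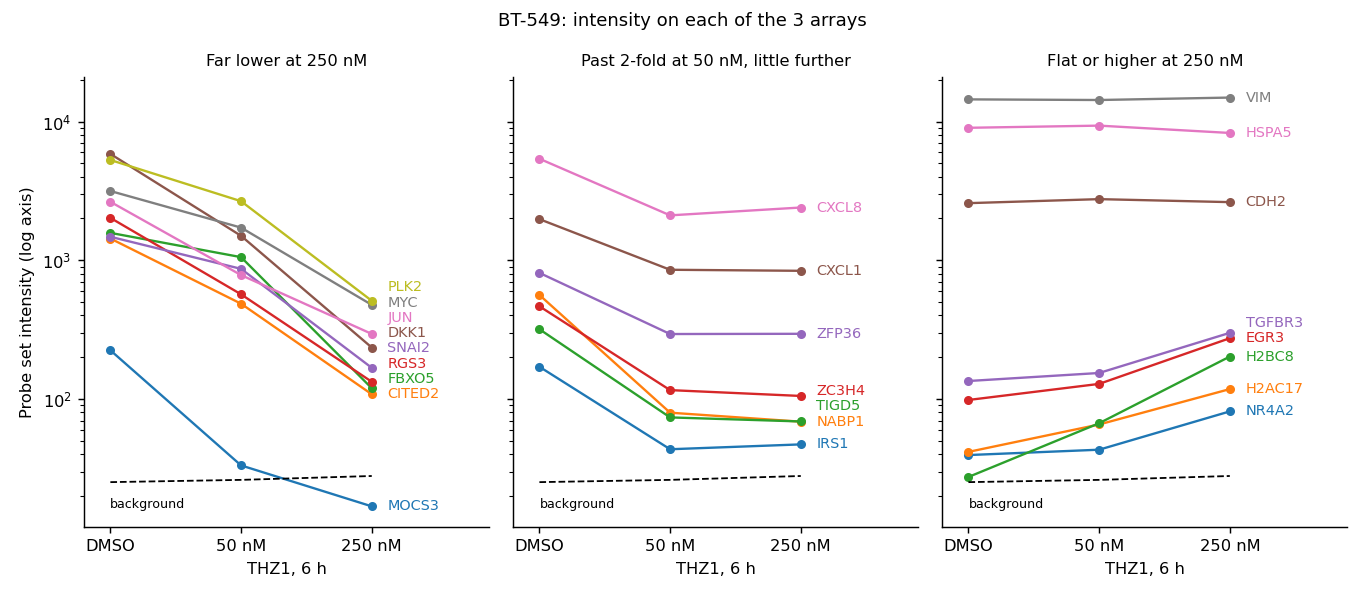
Probe set intensity (log axis) of selected genes on the DMSO, 50 nM and 250 nM arrays of BT-549, 1 array per dose, with the background as a broken line. The left panel holds genes that step down at each dose, such as DKK1 (5842 to 235), the middle panel genes that reach their low level at 50 nM, such as NABP1 (562.3, 79.7 and 68.65), and the right panel flat genes such as VIM and genes that are higher at 250 nM, such as H2BC8 (27.42 to 202.3).

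Immediate early genes, the first to answer a growth factor, divided by member. Of 35 kept, 16 were lower (45.7%, beside 10.0% over all genes kept) and 2 higher at 250 nM, with a median of -0.92 (-0.71 over all 38 measured). At 50 nM 4 were lower (11.4%, beside 3.62% over all genes kept), with a median of -0.54. PLK2, a polo-like kinase of stress responses, read 5282, 2665 and 510.5 (-0.99 and -3.37), and its 4 probe sets lay between -3.67 and -2.79. The phosphatase gene DUSP1 read 339.5, 102.7 and 49.18 (-1.72 and -2.79). Some members were not lower, and these are named after their values were seen. EGR1 read 484.6, 333.5 and 620.9, FOS read 105.1, 115 and 187.1 (0.83 at 250 nM), and JUNB read 171.6, 185.5 and 204.5. IER3 and the matrix protein gene CCN2 were lowest at 50 nM, at 2577 and 2489, and back at 4016 and 4777 at 250 nM, next to 3961 and 4508 with DMSO. The related CCN1 went from 4957 and 3364 to 816.7 (-2.60).

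Feedback genes of the EGFR and MAPK pathway were in large part lower. Of 19 kept, 12 were lower (63.2%, beside 10.0% over all genes) and 0 higher at 250 nM, with a median of -1.34 (-1.02 over all 23 measured). At 50 nM 3 were lower (15.8%, beside 3.62% over all genes), with a median of -0.25. DUSP6, a phosphatase of ERK, read 695.6, 278.7 and 119.4 (-2.54), and DUSP5, a nuclear phosphatase of ERK, read 385.1, 257.7 and 68.8 (-2.48). SPRED1, which restrains RAS signalling, stood at -2.41. PHLDA1 was already at 873 from 2767 at 50 nM and reached 547.1. The list therefore holds genes that moved mainly at the first step and genes that moved mainly at the second, DUSP4 being an example of the latter at 775.3, 830.6 and 253.1.

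Genes of the TGF-beta and BMP pathway had the lowest median of the 37 lists as deposited. Of 22 kept, 14 were lower (63.6%, beside 10.0%) and 0 higher at 250 nM, with a median of -1.39. At 50 nM 2 were lower (9.09%, beside 3.62% over all genes), with a median of -0.38. Read from the median of each gene's probe sets, the list's median at 250 nM was -0.99. The lower members included inhibitors, ligands, targets and a signal transducer. BAMBI, a decoy receptor, read 1227, 1064 and 198.4 (-2.63), the inhibitory SMAD7 read 278.8, 214.8 and 104.9 (-1.41), and PMEPA1, which sequesters receptor SMADs, read 735, 522.4 and 162.8 (-2.17). Among ligands, BMP4 read 852.2, 383 and 252.4 and BMP2 read 125.4, 67.59 and 30.36. The ID genes, targets of BMP signals that block differentiation factors, stood at -1.48 for ID1, -1.85 for ID3 and -2.09 for ID4. The signal transducer SMAD3 read 590.4, 354.1 and 123.9 (-2.25). SMAD2, SMAD4 and the receptor TGFBR1 stayed between -0.10 and -0.04 by their representing probe sets.

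NF-kB and cytokine genes were in part lower from 50 nM on. Of 21 kept, 5 were lower at 50 nM (23.8%, beside 3.62% over all genes) with a median of -0.65, and 12 were lower at 250 nM (57.1%, beside 10.0%) with a median of -1.13 (-0.61 over all 27 measured). TNFAIP3, a deubiquitinase that ends NF-kB signals, read 425.4, 190 and 57.95 (-1.16 and -2.88), and the inhibitor NFKBIA read 1741, 920.2 and 377.5 (-2.21). The transcription factor gene IRF1 read 427.2, 155.8 and 100.6 (-2.09). The chemokine genes, named after their values were seen, differed in shape from these inhibitors. CXCL8 read 5392, 2107 and 2400, CXCL1 read 1979, 854.1 and 839.4, and CCL2 read 188.4, 92.33 and 86.09. All 3 were thus near their 250 nM level at 50 nM, whereas the chemokine gene CXCL3 read 228.3, 180.5 and 346.5. The transcription factor RELA stood at -0.37 and 0 of 16 interferon response genes were lower or higher at 250 nM.

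The stress lists differed from each other. Of 23 genes of the unfolded protein and amino acid responses 11 were lower (47.8%, beside 10.0% over all genes) and 0 higher at 250 nM, with a median of -0.94. Of 18 heat shock genes 2 were lower (11.1%), among them the co-chaperone gene DNAJB1 at 695.9, 408.3 and 143.5. DDIT4, an inhibitor of mTORC1, read 1954, 554.9 and 218.9 (-1.82 and -3.16), and PPP1R15B, a subunit of the eIF2alpha phosphatase, read 777.6, 195.8 and 123.7 (-1.99 and -2.65). XBP1 and HERPUD1, which serve the endoplasmic reticulum, stood at -2.04 and -2.03. The chaperone gene HSPA5 read 9011, 9341 and 8271, and the amino acid synthesis genes ASNS, PSAT1 and PHGDH lay between -0.04 and 0.12. Of 17 targets of p53, 6 were lower (35.3%), among them CDKN1A, the p21 inhibitor of cyclin-dependent kinases, at 661.4, 452.4 and 138.1 (-2.26) and GADD45A at 4675, 1542 and 965.9 (-2.27).

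Most cell cycle genes were within 2-fold of DMSO. Of 36 genes of G1/S and replication 9 were lower (25.0%, beside 10.0% over all genes) and 0 higher at 250 nM, with a median of -0.11. The repressor E2F8 read 143, 31.37 and 22.61 and was at least 5.13-fold lower by this probe set, its other 2 lying at -2.19 and -1.49. The phosphatase gene CDC25A read 473.5, 315.2 and 118.1. E2F3 and the cyclin gene CCNE1 each stood at -1.83. CCND1, the cyclin D1 gene, read 459.7, 249.6 and 193.1 (-1.25, and -0.99 after quantile normalization, which is short of 2-fold). Its other probe sets stood at -0.86, -0.71 and 0.09 at 250 nM. The replication genes PCNA, MCM4 and MCM7 lay between -0.06 and -0.03. Of 35 G2/M genes, 3 were lower (8.57%), a share near that of all genes. FBXO5, an inhibitor of the anaphase-promoting complex, read 1576, 1053 and 119.6 (-0.58 and -3.72). WEE1, the kinase that holds CDK1 inactive, read 522, 311.7 and 88.73 (-2.56), and AURKA, a mitotic kinase, read 2069, 1368 and 637.5 (-1.70). CDK1, TOP2A and UBE2C were between -0.02 and 0.11. Among 8 anti-apoptotic genes, 2 were lower at 250 nM (25.0%, beside 10.0% over all genes). MCL1 read 2967, 2341 and 1214 (-1.29), with its 6 probe sets from -2.31 to -0.01, and CFLAR read 439.9, 290.3 and 219.7.

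CDK7, a kinase that the compound binds, read 1228, 1002 and 577.3 (-0.29 and -1.09), from 1 probe set, and quantile normalization put it at -0.94, short of 2-fold. Of 27 genes of TFIIH and the transcription kinases 2 were lower at 250 nM (7.41%, near the 10.0% of all genes), CDK7 and CDK13 at -1.37, and 0 were higher. CCNH and MNAT1, the partners of CDK7, were at 0.05 and 0.07. The 12 subunits of RNA polymerase II had a median of 0.13 with 0 past 2-fold, the lowest being POLR2D at -0.87. Of 27 Mediator subunits, which bridge activators and the polymerase, 7 were lower (25.9%), with a median of -0.18 that quantile normalization turned to 0.01. MED26 read 467.8, 666.5 and 75.96, so it was higher at 50 nM (0.51) and far lower at 250 nM (-2.62). MED9 read 124.3, 38.65 and 20.83, and MED7 read 283.9, 104.6 and 58.36.

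Zinc finger genes with a ZNF name, most of which encode DNA-binding repressors, made up the largest list. Of 486 measured, 295 were kept, of which 144 were lower (48.8%, beside 10.0%) and 0 higher at 250 nM, with a median of -0.97 (-0.67 over all 486). At 50 nM 55 were lower (18.6%), beside 3.62% over all genes, with a median of -0.51. ZNF281, a repressor of differentiation genes, read 2220, 782.4 and 198.9 (-1.50 and -3.48), with its other probe sets at -2.12 and -1.76. ZNF217 read 1343, 962.1 and 135.5 (-3.31), but its second probe set stood at -0.34. ZNF765 stood at -2.97 and its other probe sets ranged from -2.28 to 0.26. Many ZNF genes have close paralogs, and probes may read more than 1 of them.

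Of 23 kept mesenchymal markers, 2 were lower at 250 nM (8.70%, near the 10.0% of all genes), with a median of -0.03 that median-centring turned to 0.03. SNAI2, a repressor of epithelial genes also called SLUG, read 1477, 867 and 167.8 (-0.77 and -3.14), from 1 probe set. TWIST1 read 1063, 560 and 512.9 (-1.05). Several structural genes stayed near their DMSO level, with CAV1 at 10940, 11210 and 11260, COL1A2 at 0.10 and SPARC at -0.15. Others moved further, such as TAGLN and FN1 at -0.68 and -0.65. Of 33 genes of the extracellular matrix and integrins 3 were lower (9.09%, also near that of all genes) and 0 higher.

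Housekeeping groups lay slightly above 0. Of 76 genes of oxidative phosphorylation 4 were below 0 and 0 were past 2-fold at 250 nM, with a median of 0.23. For the 71 genes of cytosolic ribosomal proteins the median was 0.15, with 5 below 0, and for 33 proteasome subunits it was 0.13. One entry among the ribosomal genes, RPS2P32, is a pseudogene, and it read 105.8, 64.44 and 203.8. The largest gap between replicate arrays in the median of these 3 lists was 0.04 for oxidative phosphorylation, 0.12 for ribosomal proteins and 0.05 for the proteasome. A fixed mass of RNA was amplified for each array, so such small shifts are relative to the other transcripts and not amounts per cell.

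**Figure D4:**
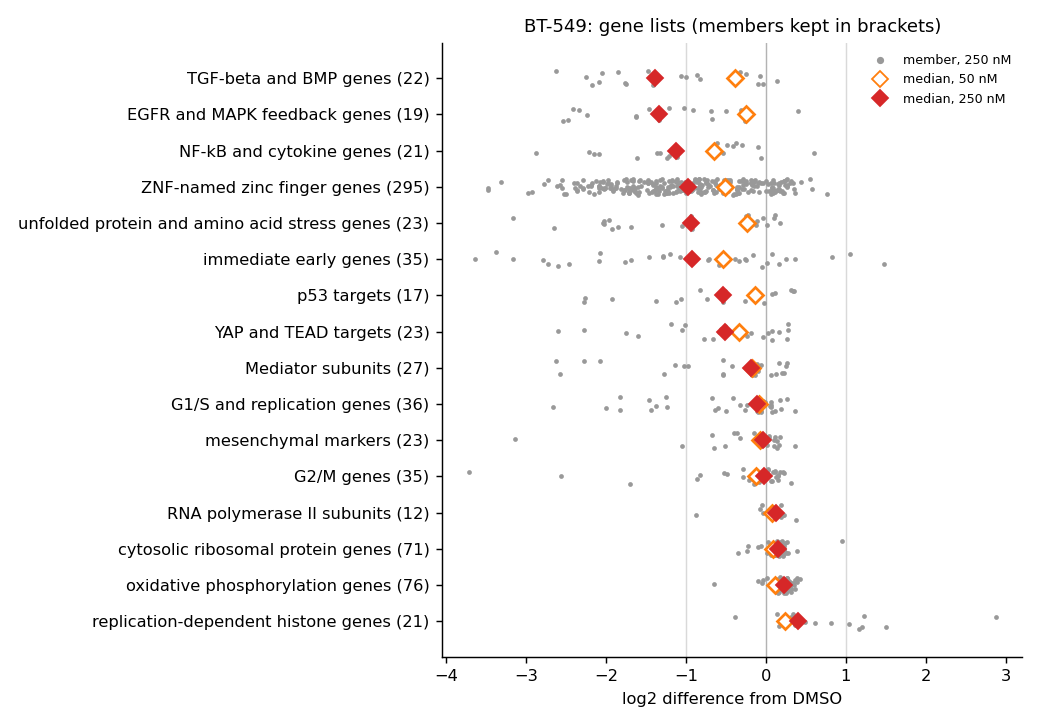
log2 difference from DMSO of the kept members of 16 gene lists at 250 nM (grey points), with the list median at 50 nM (open) and at 250 nM (red). The medians at 250 nM run from -1.39 for TGF-beta and BMP genes to 0.40 for the replication-dependent histone genes, and members spread widely within the lists that are lower.

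Some genes were already at or near their low level at 50 nM. NABP1, a single-stranded DNA binding protein, read 562.3, 79.7 and 68.65 (-2.82 and -3.03), with all 3 probe sets past 2-fold. IRS1, the adaptor of the insulin and IGF receptors, read 170.8, 43.44 and 47.09 (-1.97 and -1.86), with the other probe set at -2.11. For these, 250 nM added little. FOXE1, a forkhead factor, read 319.2, 66.43 and 38.49. CASP8AP2, a factor of histone messenger processing, read 540.2, 115.9 and 79.94. The adaptor gene FADD, which links death receptors to caspases, read 706.9, 186.5 and 107.7, and its other probe set was lower still, at -3.16. PNRC2 read 1942, 587.4 and 311.5 (-2.64 at 250 nM), and TIGD5 read 318.5, 73.68 and 68.89 (-2.21). From 50 to 250 nM, FOXE1 and FADD fell a further 1.73-fold, CASP8AP2 1.45-fold and PNRC2 1.89-fold, so these 4 only made the larger part of their step at 50 nM. E2F8, JRKL, NAPEPLD and BBS12, further genes named by rank at 50 nM, were not above background at 250 nM and were at least 5.13-, 4.16-, 2.6- and 2.35-fold lower by their representing probe sets. Other genes waited for the higher dose, and these were picked by their step between the doses. PTGER4, a prostaglandin receptor, read 988.8, 870.5 and 89.39. BAMBI and MED26 above have the same shape.

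A small set departed from a dose order. The 50 nM array was at least 2-fold below both others in 4 genes, ABCC5, CENPQ, PAPPA and TBC1D31, and at least 2-fold above both in 6, ANKRD36, CDKL3, GTF3C4, LATS1, PHF12 and ZMYM5. CENPQ, a centromere protein, read 310.9, 92.02 and 229.4, and TBC1D31 read 204.3, 94.79 and 204.3, its other probe sets lying between -0.90 and 0.00 at 50 nM. PHF12, a chromatin protein, read 46.16, 141.6 and 50.44 from the 1 probe set bright enough to judge, and LATS1, a kinase of the Hippo pathway, read 27.74, 74.07 and 33.77, also from 1. GTF3C4 read 240.9, 504.9 and 139.9, yet its other probe set stood at -0.39 at 50 nM. CDKL3 read 36.84, 151.5 and 56.11, and its other probe sets stood between -0.26 and -0.18 there. Other probe sets therefore did not share the peak in CDKL3, ANKRD36 (-0.22) or GTF3C4. CYP1B1, an enzyme induced through the aryl hydrocarbon receptor, was also lowest at 50 nM, at 1799, 774.5 and 1161.

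Probe sets of 1 gene went 2-fold in opposite directions in 9 genes at 50 nM and in 3 at 250 nM. Those at 50 nM were DIDO1, KLF3, ABL2, STARD13, SSH1, JADE1, RBBP6, ABCC5 and RNF145. KLF3 read 249.3, 55.19 and 55.14 by its brightest probe set (-2.18 at 50 nM), while another read 33.52, 75.63 and 52.1 (1.17). DIDO1 had probe sets at 148.6, 29.03 and 40.66 and at 35.38, 83.6 and 22.69. For SSH1, the probe set counted as higher read 40.64, 87.23 and 47.83, and another read 131, 53.58 and 64.25. The 3 genes at 250 nM were RSRP1, PDLIM5 and the cyclin gene CCNL1. In RSRP1 1 probe set read 194.7, 249.1 and 589.1 and another 106.6, 243.6 and 35.18. In PDLIM5, whose brightest probe set read 4414, 3771 and 3737, another read 252.3, 503.2 and 705.2 and yet another 248.7, 231.1 and 91.48. For such genes the direction depends on the probe set read, and where each probe set lies on the transcripts was not analysed here.

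Replication-dependent histone genes made up 6 of the 19 higher genes at 250 nM. This is 28.6% of the 21 kept, beside 0.176% over all genes kept. H2BC8, a histone H2B gene, read 27.42, 66.89 and 202.3 (1.29 and 2.88), and its second probe set stood at 2.57 at 250 nM. Its DMSO value lay just above the background of 25.17. H2AC17, a histone H2A gene, read 41.58, 65.53 and 117.9 (0.66 at 50 nM), with its second probe set at 1.41 at 250 nM. The values were ordered by dose in both genes. H2AC8 read 114.2, 147.3 and 268.2, with its second probe set at 0.67 at 250 nM, and H3C4 read 60.74, 82.04 and 139.7. H2BC15 and H2BC6 also passed 2-fold. The most abundant member, H4C3, read 5226, 4548 and 3979 (-0.39). Of 61 measured histone genes 21 were kept, and 9 of those were under the intensity limit with DMSO, so that they were kept through a brighter treated array. Of the 6 higher genes, 4 are among those 9. Over all 61 the median was 0.32, with 8 at least 2-fold higher and 0 lower, beside a median of 0.04 over all 18107 genes with no filter. The count of higher genes with no filter is given in the closing section on processing. With the filter on the mean of the 3 arrays, 15 histone genes were kept and 5 of them were higher. RNA was copied from oligo(dT) primers, whereas most messengers of these genes end without a poly(A) tail, so the values cover only the RNA that such primers copied. CASP8AP2, named above, was lower on the same arrays, and its part in the histone values was not tested.

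The sequences before the starts of H2BC8 and H2AC17 are shown because these genes moved together, and those of JUN, DKK1 and ADM because they have some of the largest differences among genes with a single listed start. Each is the 250 bases before the RefSeq start in GRCh38.p14, written 5' to 3' on the gene's strand, with capitals marking every match to 6 motifs searched on both strands (TATAAA, the core of the TATA box, CCAAT, the GC box GGGCGG, the E-box CACGTG, the AP-1 element TGACTCA and the cyclic AMP response element TGACGTCA). Positions are chr6:26216689-26216938, minus strand for H2BC8, chr6:27893186-27893435, minus strand for H2AC17, chr1:58784048-58784297, minus strand for JUN, chr10:52314031-52314280, plus strand for DKK1 and chr11:10304823-10305072, plus strand for ADM.
H2BC8: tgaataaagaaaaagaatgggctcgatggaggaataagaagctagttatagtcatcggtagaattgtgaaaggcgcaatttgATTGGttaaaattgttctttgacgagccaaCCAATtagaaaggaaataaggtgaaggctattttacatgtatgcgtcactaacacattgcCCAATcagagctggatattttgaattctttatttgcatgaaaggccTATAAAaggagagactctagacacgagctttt
H2AC17: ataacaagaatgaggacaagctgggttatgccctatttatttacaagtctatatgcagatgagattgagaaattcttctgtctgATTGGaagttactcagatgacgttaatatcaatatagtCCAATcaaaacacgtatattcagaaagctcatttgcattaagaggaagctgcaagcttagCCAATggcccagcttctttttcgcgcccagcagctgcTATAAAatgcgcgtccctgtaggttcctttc
JUN: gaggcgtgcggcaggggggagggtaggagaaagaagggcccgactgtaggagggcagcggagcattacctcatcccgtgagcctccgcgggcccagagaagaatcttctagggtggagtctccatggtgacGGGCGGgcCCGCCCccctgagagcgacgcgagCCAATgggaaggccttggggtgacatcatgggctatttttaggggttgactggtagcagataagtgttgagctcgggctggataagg
DKK1: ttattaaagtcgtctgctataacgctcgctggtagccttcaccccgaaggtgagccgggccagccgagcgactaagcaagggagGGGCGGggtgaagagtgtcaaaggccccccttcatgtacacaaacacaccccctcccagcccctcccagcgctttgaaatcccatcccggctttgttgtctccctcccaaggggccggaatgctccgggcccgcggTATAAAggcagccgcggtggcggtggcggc
ADM: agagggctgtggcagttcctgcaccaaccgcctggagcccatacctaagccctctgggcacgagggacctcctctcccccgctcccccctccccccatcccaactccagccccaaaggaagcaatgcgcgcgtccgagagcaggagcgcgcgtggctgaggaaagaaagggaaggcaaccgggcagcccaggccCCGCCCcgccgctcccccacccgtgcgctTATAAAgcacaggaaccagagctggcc
Both histone sequences hold 3 matches to the CCAAT box, 1 of them on the opposite strand, and a TATAAA that begins 32 bases before the start in H2BC8 and 31 in H2AC17. DKK1 and ADM have TATAAA 30 and 27 bases before the start, and JUN has none in this window.

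The same motifs were counted in windows of 300 bases, 250 before and 50 after each start. Such windows were listed for 8926 of the 10797 kept genes, 13014 windows in all. TATAAA was in 6.38% of the windows of kept genes, in 7.52% of those of genes at least 2-fold lower at 250 nM, in 12.2% of those at least 4-fold lower and in 6 of 17 windows of the higher genes (35.3%). Over all 35116 windows of the table the share was 11.5%. CCAAT was in 34.8% of the windows of kept genes, 37.4% at 2-fold lower, 41.5% at 4-fold lower and 64.7% of the higher genes' windows, against 34.6% over the whole table. GGGCGG, the GC box, was in 66.5%, 66.2%, 63.1% and 41.2% in the same order, against 45.0%. CACGTG was in 9.61% of the windows of kept genes, 10.3% of those of lower genes and 7.26% of the table. TGACTCA was in 3.44%, 3.57% and 4.95%, and TGACGTCA in 2.85% of kept and 1.85% of all windows. The 17 windows of the higher genes belong to 14 of the 19 such genes. Replication-dependent histone genes make up 6 of the 19, and their part in the shares of the higher genes was not separated. A match is a stretch of letters, not a shown binding site.

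Most other higher genes at 250 nM had 1 usable probe set or were dim. EGR3, a transcription factor of the EGR family, read 98.4, 128.5 and 274.3 (0.39 and 1.48), from 1 probe set. NR4A2, an orphan nuclear receptor, read 39.45, 43.11 and 81.42 (1.05), and its other 2 usable probe sets stood at 0.43 and 1.56. TGFBR3, the co-receptor betaglycan, read 134.8, 154 and 299.9 (1.15), with its second probe set at 0.82. These 3 were chosen after their values were seen, except EGR3, and all 3 moved mainly at the second step. The small nucleolar RNA SNORA65 and the noncoding SNHG17 read 30.67, 55.36 and 80.37 and 27.03, 47.15 and 65.81, under the same limit of oligo(dT) priming. FCN2 read 16.53, 22.85 and 58.42, which is at least 2.32-fold, and its replicate arrays in other lines were up to 1.11 apart on the log2 scale. The remaining higher genes ended between 59.05 and 169.4 in intensity and included PECAM1 (35.37, 41.38 and 74.26) and PABPN1 (82.16, 186.4 and 169.4). Of the 19, 14 were under the intensity limit with DMSO. TRAPPC10 and USP45, named by rank at 50 nM, read 64.88, 150.9 and 79.17 and 67.26, 155.3 and 87.71.

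Set beside single arrays of the other lines, the BT-549 counts are given with shares, since 10797 genes were kept in BT-549 and 11293 to 11654 in the others. Each treated array against each DMSO array gave 180 to 244 genes at least 2-fold lower at 50 nM in MDA-MB-468, 74 to 98 in T47D and 30 to 56 in ZR-75-1, against 391 in BT-549. At 250 nM the ranges were 1276 to 1457, 1130 to 1270 and 2160 to 2415, against 1080 in BT-549. From 50 to 250 nM they were 813 to 897, 681 to 838 and 1909 to 2225, against 467. As a share of the genes kept, BT-549 at 50 nM (3.62%) lay above the highest array pairing, 2.15% in MDA-MB-468. At 250 nM its 10.0% lay within the T47D range of 9.70% to 10.9% and under those of MDA-MB-468 (11.2% to 12.8%) and ZR-75-1 (19.1% to 21.4%). From 50 to 250 nM its 4.33% lay under the lowest pairing, 5.84% in T47D. Whether this differs beyond the spread of BT-549 arrays could not be tested with 1 array per dose.

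Many genes that were lower in BT-549 were lower elsewhere too. Among genes kept in both lines, 787 of 1014 lower genes of BT-549 at 250 nM (77.6%) were also lower in MDA-MB-468, which is 65.7% of the 1198 lower there, where 11.8% of all genes were lower. With ZR-75-1 the overlap was 845 genes, 86.9% of BT-549's and 41.8% of that line's, where 20.2% of genes were lower. With T47D it was 580, 58.6% and 56.4%, beside 10.2%. At 50 nM 109 genes were shared with MDA-MB-468, 30.1% of the BT-549 list and 71.7% of the other, where 1.5% of all genes were lower. With ZR-75-1 12 were shared, 3.61% of BT-549's and 60.0% of the 20 lower there, beside 0.2%. With T47D 37 were shared, 10.7% of BT-549's and 67.3% of the 55 lower there, beside 0.545%. Of the genes kept in both lines, 3.57%, 3.32% and 3.44% were lower in BT-549, in the same order. Across genes the differences at 250 nM correlated at r = 0.83, 0.78 and 0.71 with MDA-MB-468, ZR-75-1 and T47D. None of these lines shares an array with BT-549.

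Single genes showed where the lines parted, as values without a test. DKK1 stood at -4.64 in BT-549 and between -4.54 and -4.09 over the pairings of arrays in MDA-MB-468. JUN, at -3.16, lay within the range of MDA-MB-468 (-3.25 to -2.82) and of T47D (-3.20 to -2.74). MYC, at -2.73, lay between MDA-MB-468 (-4.36 to -4.11) and ZR-75-1 (-2.38 to -2.20). MCL1, at -1.29, lay in the T47D range of -1.32 to -1.13 and above that of MDA-MB-468. SNAI2 was under the intensity limit in all 3 other lines, so its difference could be read in BT-549 alone. The opposite holds for CYP1A1, the enzyme whose gene stood at -4.01 in MDA-MB-468 and -3.85 in T47D at 250 nM: in BT-549 it read 30.99, 30.57 and 29.08, close to background throughout. TGFBR3, at 1.15 in BT-549, lay between -0.77 and -0.05 over the array pairings of the other lines. MMS22L and TBC1D31, at 0.08 and 0.00 in BT-549 at 250 nM, were at -2.20 and -2.50 in ZR-75-1. H2BC8 was at 2.88 in BT-549, from 1.57 to 2.16 in MDA-MB-468, from 1.14 to 1.34 in ZR-75-1 and from -0.23 to -0.10 in T47D.

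**Figure D5:**
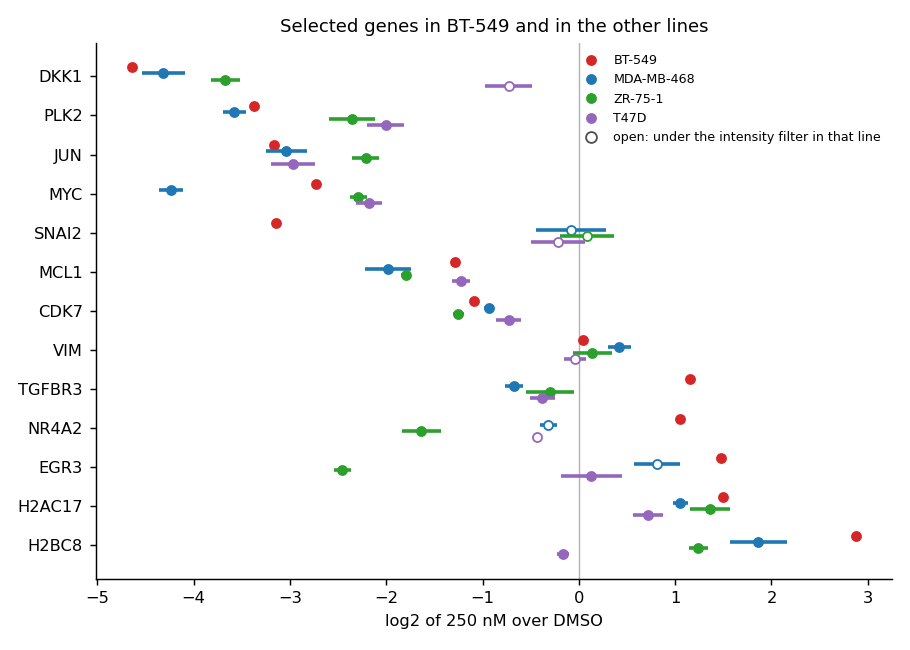
log2 of 250 nM over DMSO for 13 selected genes in BT-549 (red, 1 array per dose) and in the other lines (bars span the 4 pairings of a treated with a DMSO array, points mark the middle, open points are under the intensity limit in that line). SNAI2 has a readable value in BT-549 alone, and EGR3, NR4A2 and TGFBR3 lie to the right of 0 in BT-549 and to the left in ZR-75-1.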

How the data were processed

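RNA of BT-549 was measured on 3 Affymetrix 3' expression arrays and compared with 18 arrays of other lines. The authors deposited intensity on a linear scale, 1 value per probe set. The submitters' processing notes list MAS5 without its version. Scaling between arrays is not stated in the labels. Per the labels' protocols an ERCC mix was added by cell number, but no probe set is named for it, so it was not used. Of 49395 probe sets, 44994 had 1 gene symbol, 1832 several and 2569 none, and 44967 were updated through the Entrez identifier. Values under 1 were set to 1, and log2 of the deposited intensity was used with no further scaling (Python 3.11.15, pandas 2.3.3, numpy 2.4.6). 53 probe sets identical to another of the same gene were counted once in the internal check. Where the dimmer array was not above background, the fold is a bound against background. The counting was tested on simulated data.

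The members and the 37 lists were chosen with earlier results of these data known. Named genes are, per dose, the 12 lowest and 8 highest whose probe sets all pass 2-fold, the 4 lowest and 4 highest with 1 usable probe set, 11 fixed genes, up to 4 members per list by size (any member of a list of 12 or fewer), and up to 6 genes per dose with opposed probe sets. Exceptions, marked in the text or standing as values within a list, were chosen after their values were seen. Counts from single arrays of other lines were also added then. Promoter windows come from RefSeq, build GRCh38.p14.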

Additional observations from a re-analysis of the deposited data

Results flagged for a closer look

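3 genes were at least 2-fold higher in BT-549 at 250 nM while both 250 nM arrays of another line lay below both of its DMSO arrays, by 2-fold on average. The difference between the lines was not tested, as BT-549 has 1 array per dose. EGR3 stood at 1.48 in BT-549 and at -2.46 in ZR-75-1 on the log2 scale. NR4A2 stood at 1.05 in BT-549 and at -1.64 in ZR-75-1. FCN2 stood at 1.82 in BT-549 and at -1.20 in T47D. Its level in BT-549 was not above background with DMSO, so it was at least 2.32-fold higher there. In T47D its mean at 250 nM, 25.94, lay under the background of 28.33 and 28.32 of those arrays, so -1.20 is not an exact difference either.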

How the results depend on the processing

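No paired analysis was possible because BT-549 has 1 array per dose and its labels carry no replicate number. For the same reason no BT-549 array could be left out. Counts of lower genes stayed within 1.5 times the reported ones under every scaling, filter, pseudocount and choice of probe set tried. Restricted to genes with more than 1 usable probe set, all on the same side, they were 171 at 50 nM, 585 at 250 nM and 271 between the doses, and the higher genes 3, 5 and 4; fewer genes qualify by construction. The counts of higher genes moved more. Against 17 at 50 nM there were 26 after median-centring, 41 with no filter, 9 with log2(value + 16) and 10 by the median of probe sets. Against 19 at 250 nM there were 30 after quantile normalization, 52 with no filter, 8 with the filter on the mean of the 3 arrays and 8 with log2(value + 16). Against 12 between the doses there were 20, 35, 6 and 7 after quantile normalization, with no filter, with log2(value + 16) and by the median of probe sets. The share of lower genes at 250 nM whose probe sets all agreed was 97.7% when a probe set had to reach the 75th percentile (92.1% as reported), and the share also lower in MDA-MB-468 was 72.3% after median-centring (77.6%). KLF3 at 50 nM turned from -2.18 to 0.69 by the median of its probe sets, and SSH1, higher as reported, to -1.29 with its brightest BT-549 probe set and to -0.65 by the median. Of the other values of named genes under these settings 421 moved by less than the spread between replicates and 126 by more, without a change of sign in a 2-fold call. Of the list medians under these settings, 213 moved by less than that spread and 157 by more. The cause was not tested. The number of arrays, 1 per dose, limits the precision, and 87 of the lower genes at 250 nM were at background.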
